A study of Canis lupus familiaris with 10 samples.

Results

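Ribosome assembly begins in the nucleolus, where the precursor of ribosomal RNA is transcribed, modified, cut and folded onto ribosomal proteins by a large set of factors that leave before the mature subunits reach the cytoplasm. *FBL* encodes fibrillarin, the methyltransferase of the box C/D small nucleolar ribonucleoproteins, which 2'-O-methylates the ribosomal RNA precursor. *PES1* and *BOP1* encode subunits of the PeBoW complex, which is needed for processing of the large subunit's ribosomal RNA. *NOP53* encodes a late nucleolar factor of the large subunit that brings the RNA exosome to the precursor. The expression of these 4 genes was followed in visceral adipose tissue (VAT) of dogs, a fat depot that holds stromal, vascular and immune cells beside its adipocytes.

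The 4 genes were selected from the differentially expressed genes (DEGs) that the study listed as upregulated by treatment, so they are 4 of 19856 genes in the count tables, and their higher expression after treatment is given by the selection. All 4 had enough reads to enter the comparison of 13577 genes. VAT was taken by laparotomy from 5 adult Beagle dogs (3 males, 2 females) before treatment (Pre-ACTH, week 0) and from the same dogs after 25 weeks of permanent administration of tetracosactide, a synthetic ACTH analog, by osmotic pumps (Post-ACTH). Dosage went from 1.3-1.95 μg/kg/day to a final 6-10 μg/kg/day, and there were no untreated dogs followed over the same time, so treatment and elapsed time cannot be told apart. The dogs are numbered by their animal identification in ascending order, with males as dogs 1, 4 and 5. The 10 libraries held 8728330 to 14867529 counted reads, with the lowest total in the Pre-ACTH library of dog 3, and scaling factors (TMM) between 0.973 and 1.05. The 4 genes together took 2770 to 7082 reads per library. No sequence or position is given for them, because no annotation of the genome build of the counts was used here.

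All 4 factors were more abundant in Post-ACTH than in Pre-ACTH in each of the 5 dogs, by 1.38 to 1.46-fold on average, and for none of them did the 2 groups overlap. *FBL* showed the largest average change and *PES1* the smallest, but the distance between them was smaller than the spread between dogs. Separate groups with higher values in Post-ACTH were found in 4.30% of all genes tested, and a higher value in all 5 dogs in 13.4%. As the genes were selected for this difference, it is described here without a test.

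*BOP1* (ENSCAFG00000001554) had 981, 973, 846, 1064 and 1108 normalized counts (reads scaled to a common library size) in the Pre-ACTH libraries of dogs 1 to 5. In the Post-ACTH libraries of the same dogs it had 1174, 1582, 1197, 1973 and 1338 normalized counts. The lowest Post-ACTH values, in dogs 1 and 3, stood just above the highest Pre-ACTH value of dog 5. The average went from 994 ± 101 to 1453 ± 333 normalized counts (SD, n = 5 dogs), and the within-dog log2 ratio was 0.52 ± 0.27 (SD, n = 5). Dogs 1 and 5 showed ratios of 0.26 and 0.27, while dogs 2 and 4 reached 0.70 and 0.89, so *BOP1* was the factor whose ratio differed most between dogs.

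*PES1* (ENSCAFG00000012792), the partner of *BOP1* in the PeBoW complex, had 437, 379, 477, 409 and 443 normalized counts in Pre-ACTH. In Post-ACTH it had 514, 574, 570, 661 and 653 normalized counts. Dog 3 had the highest value before treatment and only the fourth highest after it. The averages were 429 ± 37.1 and 594 ± 62.0 normalized counts (SD, n = 5 dogs). Within dogs the log2 ratio was 0.47 ± 0.21 (SD, n = 5). The ratio was lowest in dogs 1 (0.23) and 3 (0.25) and highest in dog 4 (0.69).

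*FBL* (ENSCAFG00000005412) had 487, 446, 497, 503 and 521 normalized counts in Pre-ACTH, a narrow range. In Post-ACTH the values were 582, 630, 701, 879 and 826 normalized counts and spread more widely, with dogs 4 and 5 above the others. Its average went from 491 ± 28.0 to 724 ± 126 normalized counts (SD, n = 5 dogs), and the within-dog log2 ratio was 0.54 ± 0.21 (SD, n = 5), from 0.25 in dog 1 to 0.80 in dog 4. How reads that match several genes were counted is not given in the sources used here, so reads of close copies of *FBL* could be included in or missing from these values.

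*NOP53* (ENSCAFG00000004080) had 2298, 2005, 2080, 2130 and 2125 normalized counts in Pre-ACTH and was highest in dog 1. In Post-ACTH it had 2799, 3185, 2790, 3087 and 2909 normalized counts. The averages were 2127 ± 108 and 2954 ± 176 normalized counts (SD, n = 5 dogs). Its log2 ratio of 0.47 ± 0.14 (SD, n = 5) had the smallest spread of the 4 factors, from 0.28 in dog 1 to 0.67 in dog 2.

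**Figure D1:**
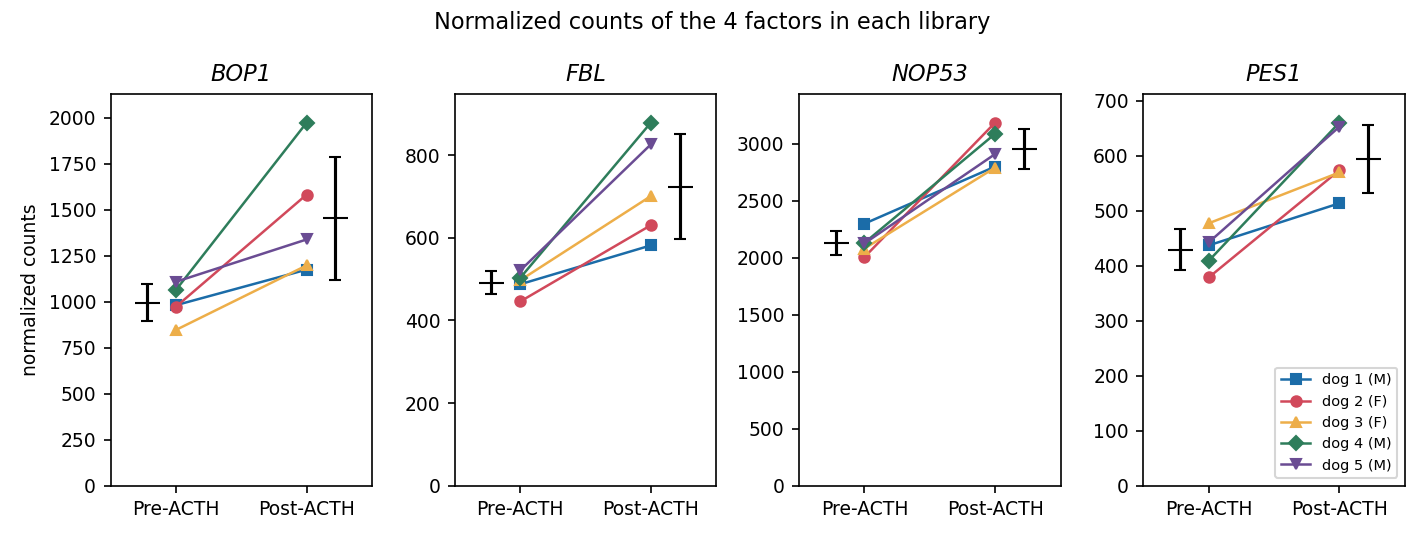
Normalized counts (vertical axes, from 0) of *BOP1*, *FBL*, *NOP53* and *PES1* in Pre-ACTH and Post-ACTH libraries, with a line for each dog and its sex in the legend; black bars give the mean and SD of 5 dogs. Every line goes up, the groups do not overlap in any panel, and the line of dog 1 is among the flattest in all 4 panels.

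The average differences exceeded the counting error of a single library, which the selection of the genes favours. The counting error of a ratio between libraries was not calculated. In the library with the fewest reads of each gene, the counting error alone was 4.08% of the value for *BOP1*, 5.32% for *FBL*, 2.60% for *NOP53* and 5.43% for *PES1*, and it covers counting only. The coefficient of variation between dogs was 10.1% in Pre-ACTH and 22.9% in Post-ACTH for *BOP1*, and 5.70% and 17.5% for *FBL*. For *NOP53* it was 5.07% and 5.97%, and for *PES1* 8.65% and 10.4%. All 4 factors thus had the higher coefficient of variation in Post-ACTH, a difference that was not tested. Within Pre-ACTH, the spread of *FBL* between dogs was close to its counting error.

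Among all genes tested, the changes of the 4 factors were moderate in size. Their log2 fold changes in the paired fit were 0.53 for *BOP1* (SE 0.11), 0.55 for *FBL* (SE 0.09), 0.47 for *NOP53* (SE 0.08) and 0.47 for *PES1* (SE 0.10), with a median of 0.50 beside -0.00 over all 13577 genes. Between 76.5% and 80.3% of genes had a log2 fold change of the same or smaller size in either direction. Their dispersion was low: the biological coefficient of variation, the spread between replicates beyond counting error as estimated by edgeR, was 0.118 for *NOP53*, 0.127 for *FBL*, 0.128 for *PES1* and 0.142 for *BOP1*, all below the median of 0.163 over all genes. Only 13.1% of genes had a value as low as that of *NOP53*, and 37.8% one as low as that of *BOP1*. Selection by a paired test favours genes of low dispersion, above all at changes of this size, so these ranks follow in part from it.

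**Figure D2:**
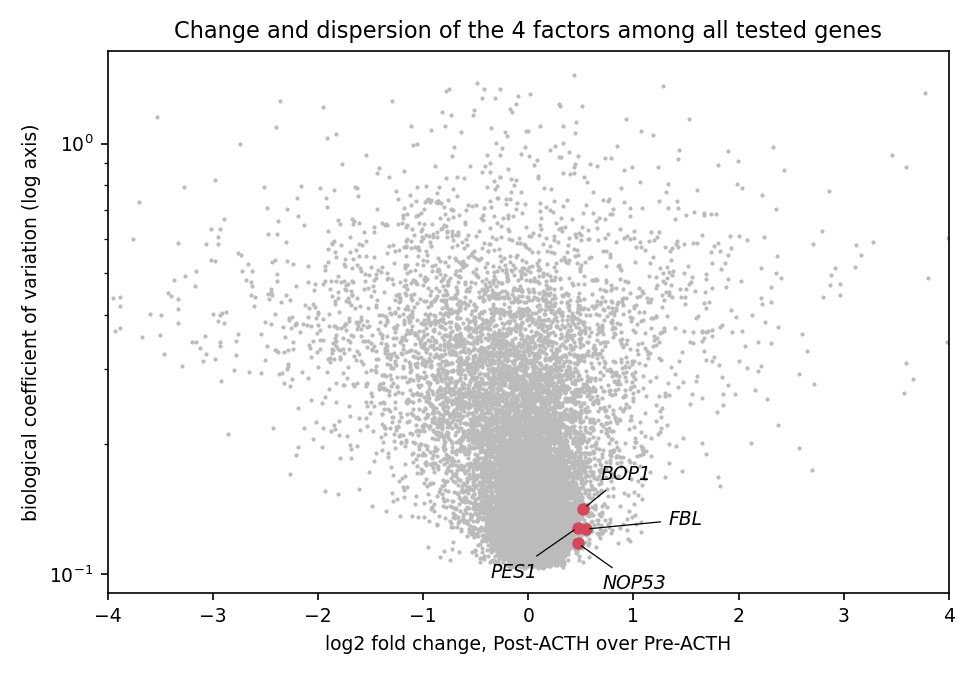
Log2 fold change of Post-ACTH over Pre-ACTH (horizontal axis) against the biological coefficient of variation (vertical axis, log scale) for all genes tested in grey and the 4 factors in red; 33 genes with a fold change beyond the horizontal limits are not drawn. The 4 factors lie together at log2 fold changes of 0.47 to 0.55 and at low dispersion, on the right edge of the dense part of the cloud. Their selection favours both a rise and low dispersion.

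At an FDR under 0.05 in the paired fit (edgeR, quasi-likelihood), 4 of the 4 factors were called higher, beside 4.84% of all genes, and at an FDR under 0.01, 0 of 4, beside 0.751%. All 4 had an unadjusted p under 0.05, as did 29.0% of all genes in either direction. DESeq2, the tool named in the study's methods, called 4 of 4 at an FDR under 0.01, beside 3.66% of all genes, and limma-voom 0 of 4, beside 2.54% in either direction. In that DESeq2 fit *PES1* was the nearest to the threshold, with an adjusted p of 0.00865, and *NOP53* the farthest from it, with 0.000223. These counts follow from the selection and carry no weight of their own. No nucleolar factor just outside the study's list could be shown beside them, as gene symbols came from that list alone. At an FDR under 0.05 the number called fell to 0 of 4 without dog 2, 1 of 4 without dog 5 and 2 of 4 without dog 4, and it was 3 of 4 without dog 3. In each of these edgeR fits all 4 kept an unadjusted p under 0.05. Calls fell over all genes too. At an FDR under 0.01, 268 genes became 1 without dog 2, 23 without dog 5, 117 without dog 4 and 12 without dog 3. The share of all genes called at 0.05 in these fits is not given here.

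The log2 ratios of the factors differed between dogs. Each ratio rests on 1 library before and 1 after treatment, so a dog's response cannot be told apart from variation of single samples. In dog 1 the 4 log2 ratios lay within 0.23 to 0.28, the lowest average of the 5 dogs (0.26). Dog 4 had the highest average (0.73), and its ratios went from 0.53 for *NOP53* to 0.89 for *BOP1*. In dog 5, *BOP1* had a ratio of 0.27 while *FBL* reached 0.66, and in dog 3 *PES1* (0.25) lay below *BOP1* (0.50) and *FBL* (0.49). In single dogs, the 4 factors stood between the 72.2nd and the 92.8th percentile of the ratios of all genes. The median of the 41 cytosolic ribosomal protein genes named in the study's list was 0.37, 0.51, 0.38, 0.63 and 0.65 in dogs 1 to 5, beside averages of 0.26, 0.62, 0.42, 0.73 and 0.49 for the 4 factors. Over the dogs these came to 0.51 ± 0.13 for the ribosomal proteins and 0.50 ± 0.18 for the factors (SD, n = 5), and dogs 1 and 3 were the lowest in both. Both sets came from the study's DEG list, selected on these samples. Over all 445 named genes of that list that rose, the medians were 0.498, 0.797, 0.719, 0.888 and 0.722 in dogs 1 to 5. Dogs 1 and 3 were thus the lowest there too.

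Whether the response depended on sex was not used in selecting the genes and was therefore tested. The test is not fully independent of the selection, because a difference between the sexes adds to the spread that the paired selection disfavours. *BOP1* had an average log2 ratio of 0.47 in the 3 males and 0.60 in the 2 females, a difference (males minus females) of -0.13 with a 95% interval from -0.69 to 0.43. The difference was -0.12 for *NOP53* (interval -0.52 to 0.28), 0.08 for *FBL* (-0.41 to 0.56) and 0.07 for *PES1* (-0.43 to 0.56). None of the 4 was called, and the adjusted p was 1 for each by the interaction term of edgeR's paired fit, with the lowest unadjusted p at 0.493 for *NOP53*. Over all genes this test called 0 (0%) at an FDR under 0.05, and 435 had an unadjusted p under 0.05. DESeq2 called 5 genes at an FDR under 0.01, none of them a factor, and limma-voom called 0. With 3 and 2 dogs, each of the 4 intervals held 0 and reached at least 0.28 to either side of it.

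**Figure D3:**
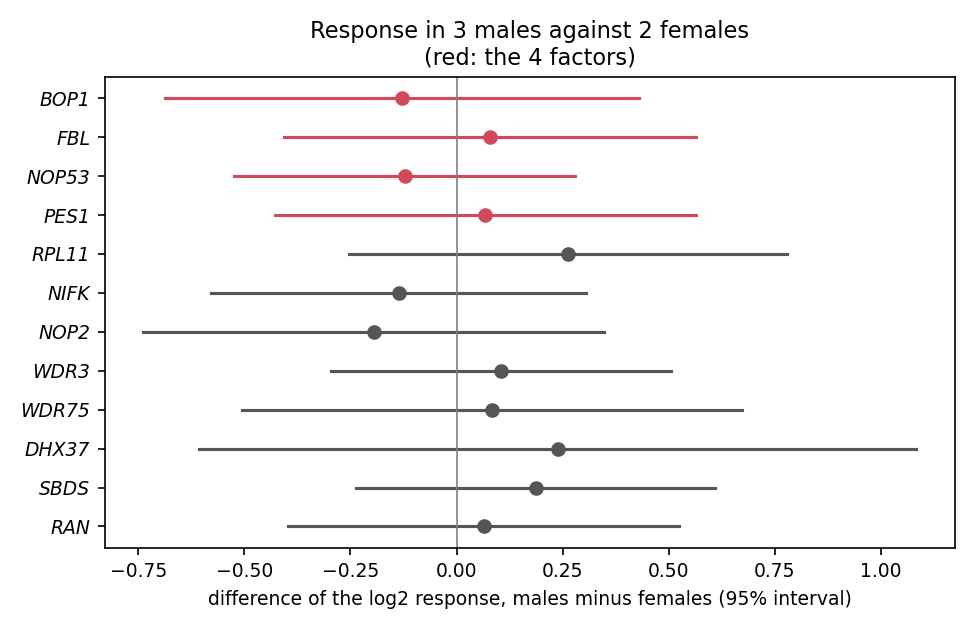
Difference of the log2 response to treatment between males and females (horizontal axis, males minus females) for the 4 factors in red and 8 other ribosome biogenesis genes in grey, with points for the estimate and lines for the 95% interval of edgeR's fit. Every interval holds 0, and those of the 4 factors reach from -0.69 to 0.56.

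Differences in level between dogs, over both time points, were not used in selecting the genes, but their test is not independent of the selection. The paired selection favours genes with little spread left after dog and treatment, and the test compares the dogs against this spread. Of 445 named genes of the study's list that rose, 122 had an unadjusted p under 0.05 (edgeR), beside 1921 of all 13577. The average log2 level of *BOP1* differed by 0.52 between dog 4, the highest, and dog 3, the lowest. For *FBL* the distance was 0.33, between dogs 4 and 2, and for *PES1* 0.20, between dogs 5 and 2. *NOP53* was almost even, with a distance of 0.09 on the log2 scale. None of the 4 differed between dogs at an FDR under 0.05, beside 0.265% of all genes, by edgeR's joint test of the 4 dog terms. The adjusted p was 0.426 for *BOP1*, 0.491 for *FBL*, 0.801 for *PES1* and 0.974 for *NOP53*. The unadjusted p was 0.0917 for *BOP1* and above that for the others, and neither DESeq2 nor limma-voom called a factor at an FDR under 0.01. In the fit, the distance between the highest and the lowest dog of *NOP53* was among the smallest of all genes, with only 0.766% of genes at or below it, and 10.9% of genes were at or below that of *PES1*.

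The ratios between the factors within a library, which do not depend on the scaling of libraries, changed little. The log2 ratio of *BOP1* to *PES1* counts was 1.21 ± 0.23 in Pre-ACTH and 1.26 ± 0.24 in Post-ACTH (SD, n = 5), and it moved by 0.06 ± 0.21 within dogs, up in 4 of 5. That of *NOP53* to *PES1* moved by 0.01 ± 0.13 and that of *FBL* to *PES1* by 0.08 ± 0.12. For *BOP1* to *FBL* the shift was -0.02 ± 0.22, although the ratio went up in 4 of 5 dogs, with dog 5 falling from 1.09 to 0.69. None of the 6 pairs moved on average by as much as the SD between dogs. Because genes differ in length, only shifts of these ratios are comparable between pairs, not the ratios themselves.

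Across the 10 libraries, the closest pair was *FBL* and *PES1*, with a Pearson correlation of log2 CPM (counts scaled to library size) of 0.96. *NOP53* and *PES1* followed with 0.90, *FBL* and *NOP53* with 0.85, *BOP1* and *NOP53* with 0.85, *BOP1* and *FBL* with 0.84, and *BOP1* and *PES1* with 0.78. These values include the shift between the groups, which the selection fixes. Taken as deviations from the group means, the correlation stayed at 0.84 for *FBL* and *PES1* and was 0.64 for *BOP1* and *NOP53*. It was 0.35 for *BOP1* and *PES1*, the 2 PeBoW subunits, and 0.25 for *FBL* and *NOP53*. The libraries form 5 pairs from the same dogs, so these are descriptions over 10 points that are not independent. With the group shift included, 16 of the genes tested were at least as close to *PES1* as *FBL* was, *FBL* itself counted, and 640 at least as close to it as *BOP1*. For deviations from the group means, these counts were 60 and 2753.

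Among the 1079 genes with a symbol, all from the study's list, the pattern most like that of each factor over the 10 libraries was held by other genes. For *PES1* the 5 closest were *CPNE7* (r = 0.98), *TPM1* (0.97) and 3 ribosomal protein genes, *RPS3* (0.97), *RPL32* (0.97) and *RPL35* (0.97). The genes compared held 41 cytosolic ribosomal protein genes, all 41 of them higher in Post-ACTH in every dog. For *FBL* they were *EIF4EBP3*, of the family that binds the cap-binding initiation factor (0.98), *NTRK2* (0.97), *EIF4A1*, the RNA helicase of translation initiation (0.97), *C9orf72* (0.97) and *PTP4A3* (0.96). For *BOP1* they included *TMEM214* (0.97), *PREB* (0.95), *CHERP* (0.95) and *CHD1L* (0.94). For *NOP53* they were *ANGPT4* (0.98), *TMEM52* (0.98), *PDP1* (0.97), *DGAT1* (0.97) and *FAM105A* (0.97). The 4 lists shared no gene. These values hold the shift between the groups too, and as deviations from the group means the 5 correlations went from 0.59 to 0.80 for *NOP53*, from 0.85 to 0.92 for *BOP1*, from 0.87 to 0.95 for *FBL* and from 0.85 to 0.94 for *PES1*. The 5 genes of each factor were picked as the highest of 1078 on these same libraries. High values of both kinds thus follow in part from the search.

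Of 172 other ribosome biogenesis genes listed, 8 could be followed, because a symbol was at hand only for genes in the study's DEG list. The other partners in the complexes of the 4 factors, such as *WDR12*, *NOP56* and *NOP58*, were not analysed here. The 8 genes were thus selected on the same samples, and their direction is no independent evidence. Of these 8, 7 were called higher and 1 lower at an FDR under 0.05 by edgeR, beside 4.84% and 6.28% of all genes. At an FDR under 0.01 edgeR called 0, though all 8 had an unadjusted p under 0.05, as 29.0% of all genes did. At that FDR DESeq2 called all 8, beside 8.65% of all genes in either direction, and limma-voom 3, beside 2.54%. The number called higher at an FDR under 0.05 was 7 without dog 1, 1 without dog 2, 2 without dog 3, 5 without dog 4 and 4 without dog 5. Without dog 2, 3, 4 or 5, calls at an FDR under 0.01 fell over all genes too. The share of all genes called at 0.05 in these fits is not given here. The 8 genes had a median log2 fold change of 0.53 in the fit of all dogs.

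The small subunit processome, which folds and cuts the precursor of the small subunit, was represented by 3 genes. *WDR3* had 608 ± 60.6 normalized counts in Pre-ACTH and 868 ± 133 in Post-ACTH (SD, n = 5 dogs), and its log2 ratio was 0.51 ± 0.14. *WDR75* had the higher ratio of 0.63 ± 0.29, up to 1.07 in dog 4. *DHX37*, an RNA helicase, varied most, with 0.68 ± 0.47 and a ratio of 1.48 in dog 4, and its groups overlapped; it is named here after its values were seen. Dog 4 also had the highest ratio of *BOP1*, *FBL* and *PES1*.

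For the large subunit, *NIFK* and *NOP2*, an RNA methyltransferase, had log2 ratios of 0.49 ± 0.19 and 0.55 ± 0.25 (SD, n = 5), and the groups overlapped for *NOP2*. *RPL11*, a ribosomal protein that joins the large subunit with the 5S RNA, had 0.46 ± 0.23. *RAN*, the GTPase that drives nuclear export, had 0.56 ± 0.19 and went from 1746 ± 98.3 to 2578 ± 280 normalized counts, with separate groups. *RAN* and *WDR3* had the lowest adjusted p of the genes that were higher, 0.0112 and 0.0104 in edgeR's fit.

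*SBDS*, which acts last in this pathway by helping to release an anti-association factor from the cytoplasmic large subunit, was lower. It had 1819, 2334, 2612, 2545 and 2169 normalized counts in Pre-ACTH and 1450, 1522, 1608, 1547 and 1677 in Post-ACTH. All Post-ACTH values stood below all Pre-ACTH values, a separation found in 4.74% of all genes in this direction, and the values after treatment lay close together. In edgeR's paired fit the log2 fold change of *SBDS* was -0.55, with an SE of 0.09 and an adjusted p of 0.0113, and it was lower in 5 of 5 dogs. Without dog 2 its adjusted p was 0.0564, above both thresholds.

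**Figure D4:**
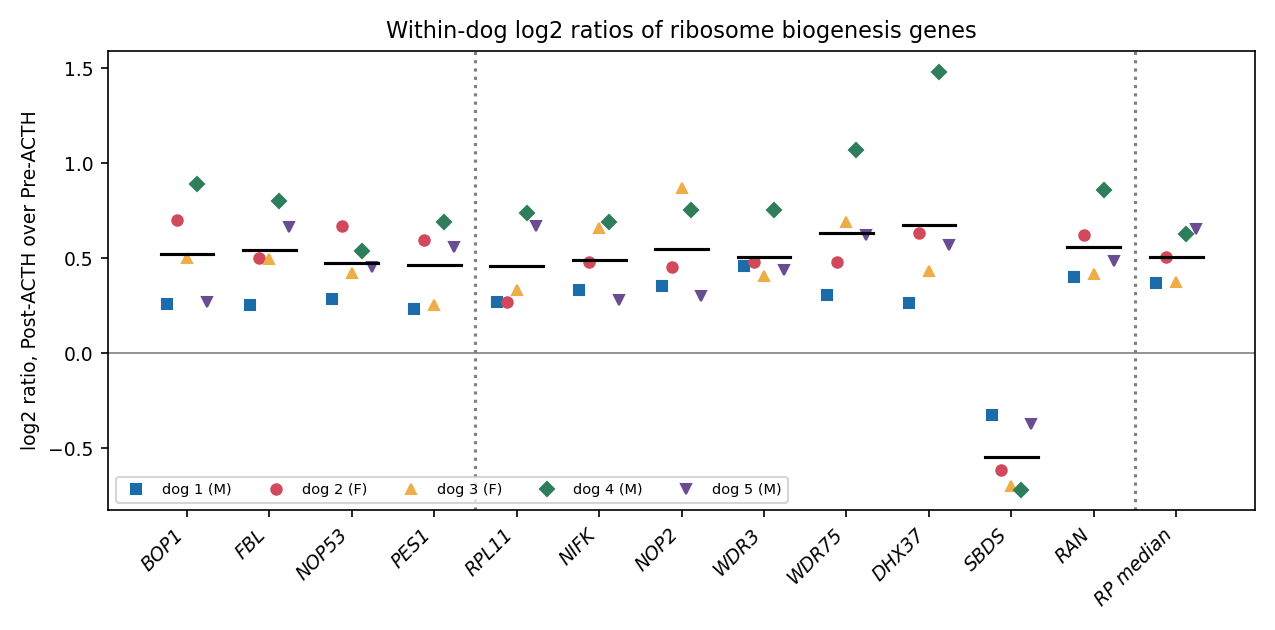
Log2 ratio of Post-ACTH over Pre-ACTH in each dog (symbols and colours) for the 4 factors on the left, 8 other ribosome biogenesis genes in the middle and the median of 41 cytosolic ribosomal protein genes (RP median) on the right; black lines give the mean of 5 dogs. All symbols lie above 0 except those of *SBDS*, which lie between -0.72 and -0.33, and dog 4 has the highest symbol for *BOP1*, *FBL* and *PES1*. *RPL11* belongs both to the 8 genes in the middle and to the 41 on the right.

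Markers of other cells moved in the same libraries, although those with a symbol were again selected as DEGs of these samples. Their calls at an FDR under 0.05 follow from that, beside 4.84% of all genes called higher and 6.28% called lower. Of the fibroblast and progenitor markers, 8 of 10 had a symbol, all 8 were called lower at an FDR under 0.05, and their summed level was 1419 to 3278 CPM in Pre-ACTH and 464 to 790 CPM in Post-ACTH. The 4 of 18 macrophage and leukocyte markers, of which 1 was called higher and 2 lower at an FDR under 0.05, summed to 118 to 232 and 58.9 to 129 CPM, and the 2 of 5 mast cell markers to 1.27 to 3.26 and 0 to 0.249. Of the 7 mural markers 3 had a symbol, with 1 called higher and 1 lower, a sum of 195 to 243 and 155 to 186 CPM, and a median log2 fold change of 0.89, opposite in sign to the shift of the sum. *CKM*, the only skeletal muscle marker of 6 with a symbol, was at 2.77 to 16.4 and 43.3 to 142. *LIPE*, the hormone-sensitive lipase of adipocytes and the only one of 13 adipocyte markers with a symbol, was at 1513 to 1935 and 2138 to 2592 CPM. No marker with a symbol was at 0 in all libraries. The defining adipocyte, endothelial, mesothelial and red blood cell markers had no symbol, so the label of the tissue could be checked through *LIPE* alone. In such bulk samples, fewer cells of a type and less RNA per cell cannot be told apart, and the part of these shifts in the values of the 4 factors was not tested.

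*MKI67*, the nucleolar and chromosomal protein of cycling cells and the only one of 10 proliferation markers with a symbol, moved opposite to the 4 factors. It was at 35.3 ± 14.9 normalized counts in Pre-ACTH and 10.6 ± 5.84 in Post-ACTH (SD, n = 5 dogs), and its groups overlapped. The log2 fold change of *MKI67* in edgeR's paired fit was -1.75, with an SE of 0.40 and an adjusted p of 0.0332.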

How the data were processed

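VAT libraries of 5 dogs, before and after treatment, were compared. Reads had been trimmed by the authors and, per the submitters' processing notes and methods, aligned with STAR (CanFam3.1) and assigned to Ensembl genes by featureCounts. The raw counts that the authors deposited, 1 table per library, were used unchanged. Tool versions, the strand setting and the treatment of reads matching several genes are not given in the sources used here. The labels name a stranded mRNA kit, the methods depletion of ribosomal RNA.

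Genes with at least 10 reads in 1 or more libraries were fitted by edgeR 4.0.16 under R 4.3.3 (quasi-likelihood test, TMM factors, Benjamini-Hochberg adjustment over all genes), with the animal as a block, as in the study's methods. Deviations from group means correlated at 0.0772 to 0.412 between libraries of a dog. Normalized counts are reads over the TMM-scaled library size, times the mean library size. For correlations and ratios within dogs, a prior count of 2 was added before CPM were put on the log2 scale. The interaction with sex and the differences between dogs were tested in the same way. Intervals are 95%. The tests were also run on simulated counts with changes larger than those of the 4 factors, and the outcome is not reported here. DESeq2 1.42.0 (without independent filtering) and limma 3.58.1 were alternatives, beside other scalings, filters and fits without each dog or without the block.

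Symbols came from the study's supplementary list, which names 1079 of its 1190 genes. The members, gene lists and cell type markers were chosen with earlier results of these data known. Named genes were the 4 factors and their direct partners, in each list those called at an FDR under 0.01 and the 2 with the lowest p, the 5 genes most like each factor (1 of them is not reported here), and the 2 highest markers of a list. Planned searches of promoter motifs were not run.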

Additional observations from a re-analysis of the deposited data

How the results depend on the processing

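The log2 fold changes of *BOP1*, *FBL*, *NOP53* and *PES1* kept their direction and moved by less than the SD between dogs under all 13 alternatives, from 0.41 for *PES1* without dog 4 to 0.62 for *FBL* without dog 1. The number of genes called over all genes, 268, was 1174 with DESeq2, 438 without a filter and 1509 at an FDR under 0.05. Without single dogs it went from 1 to 318, with 1 without dog 2, 12 without dog 3, 23 without dog 5, 117 without dog 4 and 318 without dog 1. With no replicate block it was 262, and there *NOP53* and *RAN* passed an FDR under 0.01, as did *SBDS* with its lower value, so that of the other biogenesis genes 1 was called higher in place of 0. That number was 2 without a filter (*WDR3*, *RAN*), 2 with limma-voom (the same genes), 7 with DESeq2 and 7 at an FDR under 0.05, and 0 without any single dog. With total counts or with no replicate block, 5 of these were higher at an FDR under 0.05. The interaction with sex gave 5 genes with DESeq2 in place of 0, and the estimate for a factor changed sign in 5 of 52 combinations of factor and alternative. Differences between dogs were called for 5 genes, against 15 without a filter, 432 with DESeq2, 1 with limma-voom and 36 at an FDR under 0.05, and for 1 to 8 without single dogs (8 without dog 1 or 4, 3 without dog 2, 1 without dog 3). The lowest adjusted p of the 4 factors in that test lay between 0.42 and 0.59 over its alternatives. The median correlation between the factors was 0.85, and 0.88 with Spearman's coefficient. The cause of these shifts was not tested.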

Other observations

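Of 12 glucocorticoid target genes listed, 7 had a symbol through the study's list, which was selected on these samples. Of these 7, 3 were called higher at an FDR under 0.05 (edgeR quasi-likelihood test), beside 4.84% of all genes. *PER1*, *KLF15*, *DDIT4* and *PDK4* were higher too, by 0.54 to 1.14 on the log2 scale, with edgeR adjusted p of 0.0531 to 0.0674. *FKBP5*, which encodes a co-chaperone of the glucocorticoid receptor, went from 1150 ± 462 to 4973 ± 1051 normalized counts (SD, n = 5 dogs), and its groups did not overlap. The log2 fold change of *FKBP5* was 2.21, with an SE of 0.29 and an edgeR adjusted p of 0.00633. *TSC22D3*, a leucine zipper protein induced by glucocorticoids, differed by 0.55 on the log2 scale, with an SE of 0.09 and an edgeR adjusted p of 0.0120, close in size to those of *BOP1* and *FBL*. No library stood apart from the other 4 of its group in the 24 sets of values of the 4 factors and their ratios that were checked with Dixon's criterion.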
